A study of Mus musculus with 9 samples.

Results

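The crystallin genes described here are 9 genes of the mouse retina table, *Cryaa*, *Cryab*, *Cryba1*, *Cryba2*, *Cryba4*, *Crybb1*, *Crybb2*, *Crybb3* and *Crygs*, chosen by symbol out of 22337 genes listed, and each was found once. RNA sequencing was carried out on retinas at postnatal day 28 from 3 groups of 3 libraries each. The WT group held non-treated C57BL/6J mice, and the other 2 groups held rd10 mice, a line in which a mutation of *Pde6b* makes the rods die. The rd10 mice received 1 μl of normal saline (NS group) or of extracellular vesicles from human umbilical cord mesenchymal stem cells (MSC-EVs group) in each eye at postnatal days 14 and 21. The rd10 groups thus share the mutation and the injections, while the WT mice had neither. According to the paper, the rd10 and WT mice were also bought from different suppliers. Mutation, injection and origin of the mice therefore cannot be told apart in a comparison with WT. The labels do not say how many animals or eyes each library came from, and the p-values below measure the spread between these libraries, which may be partly technical.

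Crystallins are the main soluble proteins of the lens, where they keep the tissue clear. The α-crystallins, encoded by *Cryaa* and *Cryab*, belong to the small heat shock proteins and act as chaperones that hold damaged proteins in solution. The β- and γ-crystallins are a second, unrelated family of structural proteins, and the product of *Crygs* is a γ-type crystallin whose gene lies apart from the clustered γ genes. *Cryab* is also made in heart, muscle and glia, and crystallin transcripts are found in the retina, where several of them are known to change under injury or stress. Because the lens lies against the eye cup and holds very large amounts of these transcripts, a retinal preparation can also carry some of them over, and every library is therefore given on its own.

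The members lie in 7 places in the mouse genome (GENCODE M21 annotation of GRCm38). *Cryaa* lies at chr17:31677807-31681733 on the plus strand, *Cryab* at chr9:50751325-50756636 (plus), *Cryba1* at chr11:77718615-77725283 (minus), *Cryba2* at chr1:74889934-74893143 (minus) and *Crygs* at chr16:22805203-22811577 (minus). The remaining 4 genes sit on chromosome 5 as neighbouring pairs. *Cryba4* (chr5:112246493-112252518, minus) and *Crybb1* (chr5:112255815-112269585, plus) point away from each other and lie 3296 bases apart, and *Crybb2* (chr5:113058258-113070117, minus) and *Crybb3* (chr5:113075839-113081584, minus) lie 5721 bases apart. No member shared a stretch of 50 bases of transcript with another gene, so that their reads could be assigned without a near-identical copy. *Cryab* overlaps *Hspb2*, *Cryba1* overlaps *Nufip2*, *Cryaa* overlaps *AC090881.2* and *Crybb2* overlaps *Gm43247*, in each case on the opposite strand. Strand was not stated for these libraries, so that reads of the partners cannot be told apart where they overlap; *Hspb2* itself was low, at 0.124 to 0.879 CPM (counts scaled to the same library total).

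Short stretches of member promoters are shown because Maf proteins are known to drive crystallin genes in the lens through sites that contain TGCTGA. Promoters of 300 bases (250 before and 50 after the start site, RefSeq, GRCm38.p6) matched 8 members, and *Cryab* did not match. TGCTGA on either strand was in 7 of these 8 promoters and in 19.5% of all 32851 promoters. The windows below run 5′ to 3′ on the strand of the gene, with the site, or TCAGCA where it is on the opposite strand, in capitals.
Cryaa, chr17:31677813-31677838 (plus): gcattccagcTGCTGAcggtgcagcc
Crybb1, chr5:112255726-112255751 (plus): catccaggttTGCTGAcccagctgcc
Cryba4, chr5:112252638-112252663 (minus): aaggcagagcTGCTGAcatgtccact
Cryba1, chr11:77725335-77725360 (minus): gaaaagagagTGCTGAcagagccgct
Cryba2, chr1:74893277-74893302 (minus): gatgtgcgccTCAGCActttccgttg
Crybb3, chr5:113081636-113081661 (minus): ggatgctatcTCAGCAtcccgtaatg
Crygs, chr16:22811595-22811620 (minus): gtgccttgatTCAGCAgagcctacaa
The first base of the site lay at -108 from the start site in *Cryaa*, -84 in *Crybb1*, -57 in *Cryba1* and -67 in *Crybb3*. It lay further away in the other windows, at -135 in *Cryba4*, -149 in *Cryba2* and -200 in *Crygs*. The promoter of *Cryba4* held 3 such sites, of which the middle one is shown, and the promoter of *Crybb2* held none. The GENCODE gene of *Cryaa* begins before the RefSeq start site used here, so that the *Cryaa* window lies inside it.
A heat shock element, searched as GAANNTTC (the same on both strands), was in 0 of the 8 member promoters and in 7.86% of all promoters. The promoter of *Cryab* was not among the 8, so whether it holds the element was not examined. For comparison, the promoter of *Hspb1*, the stress-induced small heat shock protein HSP27, held the element at -117 and -97.
Hspb1, chr5:135887792-135887819 (plus): ttcaacaagaGAAGTTTCcagatggggg
Hspb1, chr5:135887812-135887839 (plus): gatgggggcaGAACCTTCctggccccgc
The TATA box (TATAAA, either strand) was in 4 of the 8 and in 13.6% of all promoters, and the AP-1 site TGACTCA in 3 of the 8 and in 5.2%. These matches describe the letters in the windows and do not show binding. Whether the sites have a part in the levels of the members in these libraries was not tested.

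The libraries held 19491717 to 62532343 estimated counts, and 1 count was worth 0.0155 to 0.05 CPM. Of the rod marker genes, 7 of 7 fell in NS compared with WT. In bulk tissue, fewer cells of a type and less RNA per cell cannot be told apart. In each group the libraries did not carry the same amount of crystallin transcript. WT 2 and MSC-EVs 2 stood high and MSC-EVs 1 stood low in 8 of the 9 members. Separately, transcripts of 4 Y-linked genes summed to 183 and 189 CPM in MSC-EVs 1 and MSC-EVs 2 and to at most 0.5 CPM in the other 7 libraries, so that the library highest and the library lowest in crystallins in this group both had them.

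*Cryab*, which encodes αB-crystallin, was the member that changed between the groups. It was at 34.4, 49.9 and 34 CPM in the WT libraries, at 96.6, 104 and 92.6 CPM in the NS libraries and at 81.9, 99.6 and 79.4 CPM in the MSC-EVs libraries. Every rd10 library was above every WT library, and the NS and MSC-EVs libraries overlapped. On the length-scaled FPKM values *Cryab* was at 41.5 ± 10.3 in WT, 118 ± 6.54 in NS and 104 ± 14.1 in MSC-EVs (mean ± SD, n = 3 each).

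*Cryab* rose in NS compared with WT by a log2 fold change of 1.3 (SE 0.14, edgeR quasi-likelihood adjusted p = 0.000113), and in MSC-EVs compared with WT by 1.14 (SE 0.17, adjusted p = 0.00168). Between MSC-EVs and NS the log2 difference was -0.16 (SE 0.09, edgeR adjusted p = 0.357) and did not pass the threshold of an adjusted p of 0.05. The comparisons share libraries and are not independent. *Cryab* was also the member in which WT 2 deviated least, at 1.46 times the mean of the other WT libraries, and without WT 2 the log2 fold change in NS was 1.51. With the mean log2 level of 15 lens genes, none of them a crystallin, as a covariate it was 1.14 in NS and 1.13 in MSC-EVs. This covariate includes *Hsf4*, which retina also expresses, and it follows the 8 other members only in part. It was at -0.92 in NS 3 and -0.86 in WT 2, where the 8 members summed to 50.9 and 184 CPM.

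**Figure D1:**
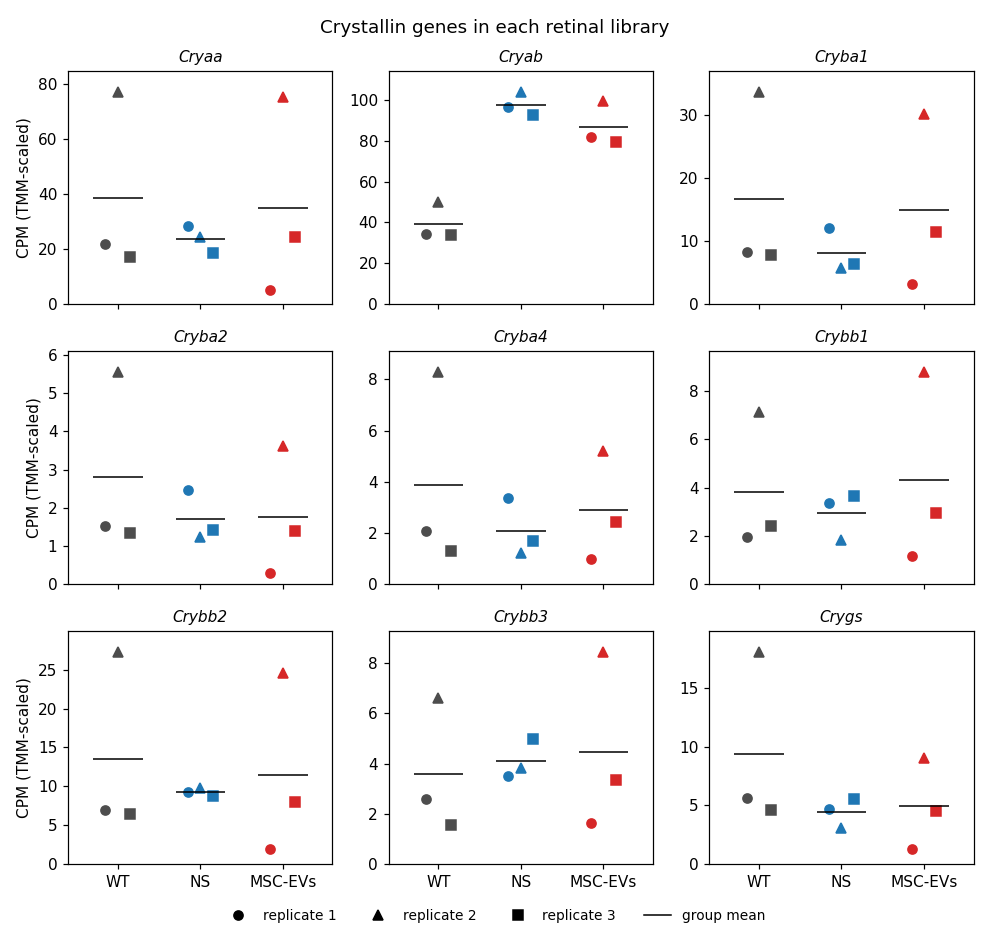
Level of each of the 9 crystallin genes in CPM (y axis, TMM-scaled, starting at 0) in the WT, NS and MSC-EVs libraries (x axis, n = 3 each), with symbols for the replicate and a line for the group mean. *Cryab* is above 79 CPM in all 6 rd10 libraries and below 50 CPM in WT, whereas in the 8 other genes the replicate 2 libraries of WT and MSC-EVs sit above the rest.

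*Cryaa*, which encodes the lens-enriched αA-crystallin, did not follow *Cryab*. It was at 21.7, 77.1 and 17.1 CPM in WT, at 28.4, 24.2 and 18.4 CPM in NS and at 4.93, 75.2 and 24.5 CPM in MSC-EVs. The WT 2 and MSC-EVs 2 libraries were close to each other and far above the rest, while the NS libraries lay close together. The highest library was 15.6 times the lowest, compared with 3.05 times for *Cryab*. The log2 difference was -0.71 (SE 0.71) in NS compared with WT, 0.55 (SE 0.92) in MSC-EVs compared with NS and -0.16 (SE 1.15) in MSC-EVs compared with WT, and none passed the test (edgeR adjusted p = 0.439, 0.792 and 0.921). The 2 chaperone subunits therefore stood in a different ratio in each library. *Cryab* had 2.24, 0.934 and 2.83 times the FPKM of *Cryaa* in WT, 4.94, 6.2 and 7.3 times in NS, and 23.8, 1.93 and 4.69 times in MSC-EVs, where MSC-EVs 2 was below WT 1 and WT 3.

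**Figure D2:**
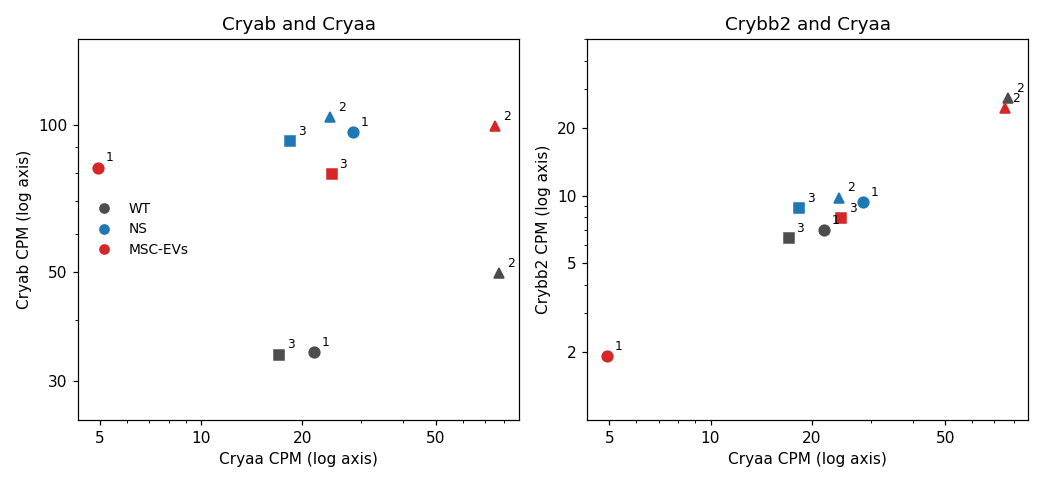
*Cryab* (left) and *Crybb2* (right) against *Cryaa*, in CPM on log axes, 1 point per library, with colour for the group, symbol and number for the replicate. *Crybb2* is lowest and highest in the same libraries as *Cryaa*, from 1.92 CPM in MSC-EVs 1 to 27.2 CPM in WT 2, while *Cryab* is lower in the 3 WT libraries than in the 6 rd10 libraries at low and at high *Cryaa*.

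The acidic β-crystallins showed the pattern of *Cryaa*. *Cryba1*, which encodes the βA3- and βA1-crystallins and in which mutations cause cataract, was at 8.3, 33.6 and 7.76 CPM in WT, at 12.1, 5.64 and 6.32 CPM in NS and at 3.09, 30.1 and 11.4 CPM in MSC-EVs. *Cryba4* was at 2.06, 8.28 and 1.3 CPM in WT, at 3.35, 1.23 and 1.69 CPM in NS and at 1, 5.21 and 2.44 CPM in MSC-EVs. In both genes the range of the WT libraries contained the values of all NS libraries apart from *Cryba1* in NS 2 and NS 3 and *Cryba4* in NS 2, which were lower. *Cryba2*, the least abundant member by FPKM in every group, was at 1.53, 5.55 and 1.35 CPM in WT, at 2.47, 1.23 and 1.42 CPM in NS and at 0.293, 3.63 and 1.38 CPM in MSC-EVs. The MSC-EVs 1 value of *Cryba2* rested on 7 counts.

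Among the basic β-crystallins, *Crybb2*, one of the most abundant proteins of the adult lens, was at 7.04, 27.2 and 6.46 CPM in WT, at 9.33, 9.8 and 8.83 CPM in NS and at 1.92, 24.5 and 7.94 CPM in MSC-EVs. The NS libraries of *Crybb2* had a coefficient of variation of 5.19%, against 87.1% in WT and 102% in MSC-EVs. *Crybb3* was at 2.6, 6.62 and 1.55 CPM in WT, at 3.51, 3.82 and 4.99 CPM in NS and at 1.63, 8.41 and 3.36 CPM in MSC-EVs. For both genes all NS libraries were above WT 1 and WT 3 and below WT 2. *Crybb1*, which lies next to *Cryba4*, was at 1.97, 7.12 and 2.4 CPM in WT, at 3.35, 1.81 and 3.66 CPM in NS and at 1.17, 8.79 and 2.97 CPM in MSC-EVs.

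*Crygs*, which encodes γS-crystallin, was at 5.61, 18 and 4.6 CPM in WT, at 4.7, 3.09 and 5.58 CPM in NS and at 1.34, 9.05 and 4.55 CPM in MSC-EVs. WT 2 and MSC-EVs 2 were again the highest libraries of their groups, and *Crygs* was the member whose MSC-EVs 2 level was furthest below that of WT 2 relative to *Cryaa*. Its excess over the other libraries of the group was 0.224 CPM for each CPM of *Cryaa* excess in WT 2 and 0.101 in MSC-EVs 2, compared with 0.354 and 0.323 for *Crybb2*, 0.443 and 0.378 for *Cryba1* and 0.272 and 0.314 for *Cryab*. These ratios were computed after the values had been seen and have no test.

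In NS compared with WT, 1 of the 9 members was called changed at an adjusted p under 0.05, *Cryab*, and its libraries were also the only ones among the members that did not overlap. Of all 14644 genes tested in this comparison, 61.3% were called, 31.2% as higher, and 66.9% did not overlap, 33.7% with NS higher. The log2 differences of the 8 other members ran from -1.08 (*Crygs*, SE 0.65) to 0.17 (*Crybb3*, SE 0.49), with edgeR adjusted p-values of 0.209 to 0.782. The median over the 9 members was -0.7, compared with 0.01 over all genes. This result depended on WT 2. Without it, *Crybb2* (log2 fold change 0.47, adjusted p = 0.0183) and *Crybb3* (0.97, adjusted p = 0.0132) rose together with *Cryab*, and 7 of the 8 other members were positive. With the lens genes as a covariate, *Crybb2* (-0.93, adjusted p = 0.00359) and *Crygs* (-1.49, adjusted p = 0.000336) fell and *Cryab* rose, so that *Crybb2* had opposite directions under these alternatives. Of all genes, 7890 of 14829 tested were called without WT 2, and 7508 of 14644 with the lens covariate.

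Between MSC-EVs and NS, 0 of the 9 members were called (edgeR) and 0 had an unadjusted p under 0.05. The DESeq2 Wald test likewise called 0. Of all 14765 genes tested, 1.16% were called at an adjusted p under 0.05, 20.2% had an unadjusted p under 0.05, and 26.2% did not overlap between the groups, against 0 of the 9 members. The log2 differences ran from -0.16 (*Cryab*) to 0.87 (*Cryba1*, SE 0.85), with a median of 0.29 and a median over all genes of 0. The standard errors of the 8 members other than *Cryab* were 0.56 to 0.92, against a median of 0.11 over all genes, and the MSC-EVs group contained the highest or second highest and the lowest or second lowest of the 9 libraries in each of these genes. Differences of the sizes measured in these members were thus not detectable with these libraries. Without MSC-EVs 2 all 9 differences were negative, and none was called.

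Compared with WT, 1 of the 9 members was called in MSC-EVs, *Cryab*, which was also the only member without overlap. Of the 14623 genes tested, 55.5% were called, 28.3% as higher, and 65.1% did not overlap, 31.9% with MSC-EVs higher. The log2 differences of the 8 others ran from -0.92 (*Crygs*, SE 0.86) to 0.30 (*Crybb3*, SE 0.78), with edgeR adjusted p-values of 0.408 to 0.921 and a median over the 9 of -0.17. With WT 2 and MSC-EVs 2 both left out, a choice made after seeing the data, 1 member was called, *Cryab*, at 1.24. With the lens genes as a covariate 3 were called, since *Cryba2* (-0.89, adjusted p = 0.0414) and *Crygs* (-1.02, adjusted p = 0.0207) then fell.

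**Figure D3:**
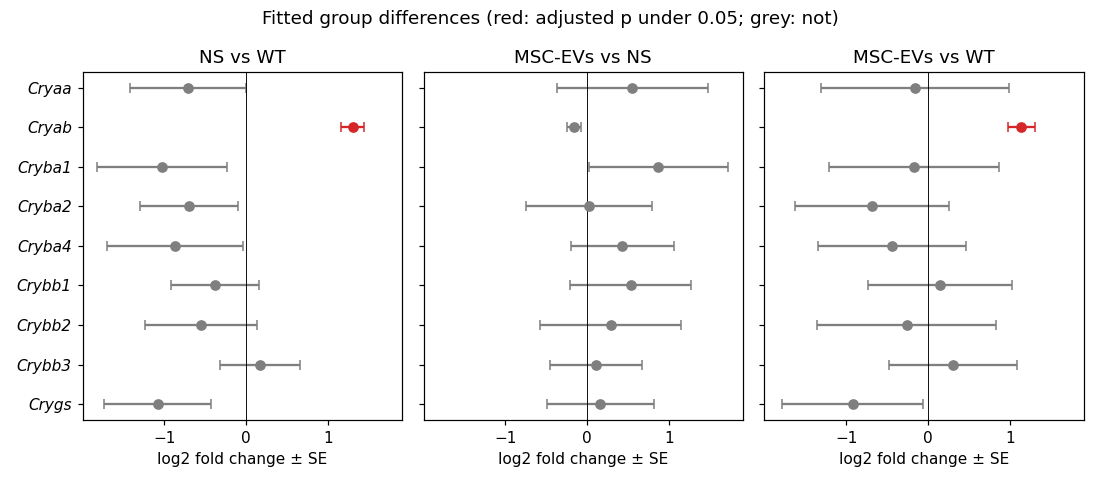
Log2 fold change and its standard error (x axis) of the 9 crystallin genes (y axis) in NS compared with WT, MSC-EVs compared with NS and MSC-EVs compared with WT, each fitted on 6 libraries. Red marks an adjusted p under 0.05, which *Cryab* alone reached, at 1.3 and 1.14 in the comparisons with WT. The error bars of the 8 other genes are 0.49 to 1.15 long on each side.

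The 8 members other than *Cryab* varied together from library to library. In WT 2 all 8 were more than 2 times the mean of WT 1 and WT 3, with a median of 3.92 times and a range of 3.19 to 4.92. In MSC-EVs 2 all 8 were again more than 2 times the mean of the other MSC-EVs libraries, with a median of 4.21 and a range of 3.02 to 5.1, and in MSC-EVs 1 the median was 0.173 of the mean of the other libraries. In the NS group the medians were 1.27, 0.622 and 0.847. Summed over the 8 genes, the level was 50.8, 184 and 42.5 CPM in WT, 67.1, 50.8 and 50.9 CPM in NS and 15.4, 165 and 58.5 CPM in MSC-EVs.

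Within the groups these genes were among the most variable of the table. The pooled within-group SD of log2(CPM + 0.5) was 1.3 for *Cryaa*, 1.17 for *Crybb2* and 0.81 for *Crybb3*, the highest, second highest and lowest among the 8. Over the 13828 genes with a mean of at least 1 CPM the median was 0.12, and 0.0795% of genes varied as much as *Cryaa* or more. For the 8 members this share was at most 0.434%. *Cryab*, at 0.21, was reached by 17.6% of genes.

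The make-up of the 8-gene sum changed much less than its size. *Cryaa* made up 30.1% to 32.6% of the summed FPKM of the 8 genes in WT, 26.6% to 36.6% in NS and 23% to 35% in MSC-EVs. *Crybb2* made up 15.4% to 17% in WT, 16.1% to 22.7% in NS and 12.7% to 17.8% in MSC-EVs. *Cryba1* was at 20.1% to 22.1% in WT and 22.6% to 23.3% in MSC-EVs, and at 21.7%, 13.7% and 14.7% in NS. *Crybb3*, by contrast, took 14.6% in MSC-EVs 1 and 13.1% in NS 3, against 5.56% to 6.82% in WT.

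By FPKM the order of the group means was *Cryab*, *Cryaa*, *Cryba1*, *Crybb2*, *Crygs*, *Crybb3*, *Cryba4*, *Crybb1* and *Cryba2* in WT, from 41.5 down to 3.62. In this group the libraries of every pair of neighbours in the order overlapped. The order in NS began with *Cryab* at 118, *Cryaa* at 19.7 ± 4 and *Crybb2* at 11.8 ± 0.736 (SD, n = 3), and the libraries of these 3 genes did not overlap with each other. From *Crybb2* down to *Cryba2* at 2.47, every pair of neighbours in NS overlapped. *Cryab* at 104 ± 14.1 lay above *Cryaa* at 28.8 ± 30 in MSC-EVs without overlap, and the neighbours below overlapped. Such overlap between libraries does not settle the order within a library, because these genes varied together. The order from *Cryaa* down to *Cryba4* held within each WT library, but *Cryaa* was above *Cryab* in WT 2 and *Crybb1* above *Cryba4* in WT 3. In each MSC-EVs library *Cryba1* was above *Crybb2*, whereas *Cryaa* (4.08) was just below *Cryba1* (4.13) in MSC-EVs 1.

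**Figure D4:**
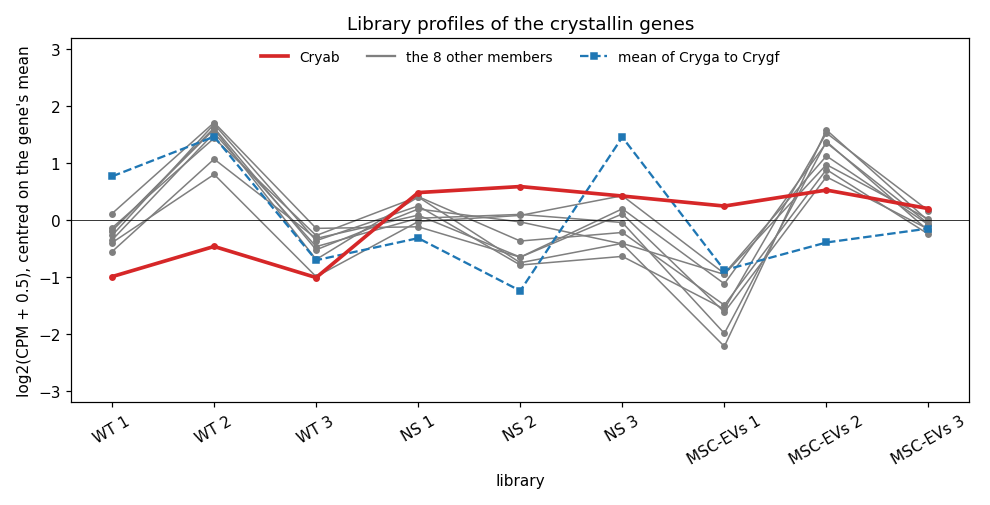
Log2(CPM + 0.5) of each crystallin gene centred on its own mean over 9 libraries (y axis), by library (x axis). *Cryab* is the red line, the 8 other members are grey lines and the mean of *Cryga* to *Crygf* is the blue dashed line. The grey lines share peaks in WT 2 and MSC-EVs 2 and a trough in MSC-EVs 1, *Cryab* steps up from WT to rd10, and the blue line peaks in WT 2 and NS 3.

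The likeness of these profiles was measured as the root mean square difference between centred log2(CPM + 0.5) profiles over the 9 libraries, in which small values mean alike. The 28 pairs among the 8 members were at 0.2 to 0.65 with a median of 0.415, and the closest pair was *Cryaa* and *Crybb2* at 0.20. The 8 pairs with *Cryab* were at 0.69 to 1.23. Among 13807 genes outside the crystallin family, those most like *Cryab* were *Pim1* (0.11), *Amz1* (0.12), *Cmtm7* (0.12), *Htr3a* (0.12) and *Cd151* (0.13), against a spread of 0.61 for *Cryab* itself. No gene came as close to *Cryaa*, whose nearest were *Gm20390* (0.78), *Ndufa4l2* (0.80), *Mip* (0.81), *Rsc1a1* (0.82) and *Egr1* (0.85), against its own spread of 1.08. *Crybb2* had *Gm20390* (0.70), *Rsc1a1* (0.70), *Ndufa4l2* (0.71), *Fos* (0.73) and *Mip* (0.73) nearest. *Mip*, which encodes the water channel of lens fibre cells, was thus in both lists, and *Egr1* and *Fos* are immediate-early genes.

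Lens genes that are not crystallins moved with the 8 members in part. Of 15 listed lens genes, 8 passed the filter on low counts in NS compared with WT, of which 1 was called higher and 7 were not called changed (edgeR). In the comparisons of MSC-EVs with NS and with WT, 0 of 7 tested changed by edgeR. Without *Hsf4*, a transcription factor that retina also expresses, the other 14 summed to 5.79, 15.4 and 7.86 CPM in WT, 10.5, 9.8 and 11.7 CPM in NS and 5.68, 15.8 and 7.01 CPM in MSC-EVs, so that WT 2 and MSC-EVs 2 were highest here too. *Mip* was at 0.807, 1.52 and 0.3 CPM in WT, 1.12, 1.23 and 0.732 CPM in NS and 0.752, 4.23 and 0.42 CPM in MSC-EVs. *Bfsp1*, a lens filament gene, was at 3.58 CPM in WT 2 and at 1.24 CPM in MSC-EVs 2, where MSC-EVs 3 was higher at 1.63 CPM. *Lenep* was lower in WT 2 (3.49 CPM) than in WT 3 (4.25 CPM) and lowest of its group in MSC-EVs 2 (1.32 CPM). The lens epithelial factors *Foxe3* and *Pitx3* were at 0 in 8 and 6 of the 9 libraries and reached at most 0.0155 and 0.0449 CPM, and *Dnase2b*, a nuclease of maturing lens fibres, and *Birc7* were at 0 in 6 and 7 libraries. Whether lens material explains the shared variation of the 8 members was not tested.

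The clustered γ-crystallin genes *Cryga* to *Crygf*, which are made in lens fibre cells and are not members, differed from the 8 members in the libraries where they were high. Their summed level was 40, 77.4 and 13.9 CPM in WT, 17, 7.3 and 64.7 CPM in NS and 10, 20.7 and 20.7 CPM in MSC-EVs. WT 2 was high in both sets, but NS 3 was at a median of 5.38 times the other NS libraries over the 6 γ genes and 0.847 times over the 8 members, and MSC-EVs 2 was at 1.06 times and 4.21 times. These 6 genes share 19.7% to 48.3% of their 50-base stretches with each other or with a further gene, so that the split of reads among them is uncertain, and 0 of the 6 changed in any comparison (edgeR).

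**Figure D5:**
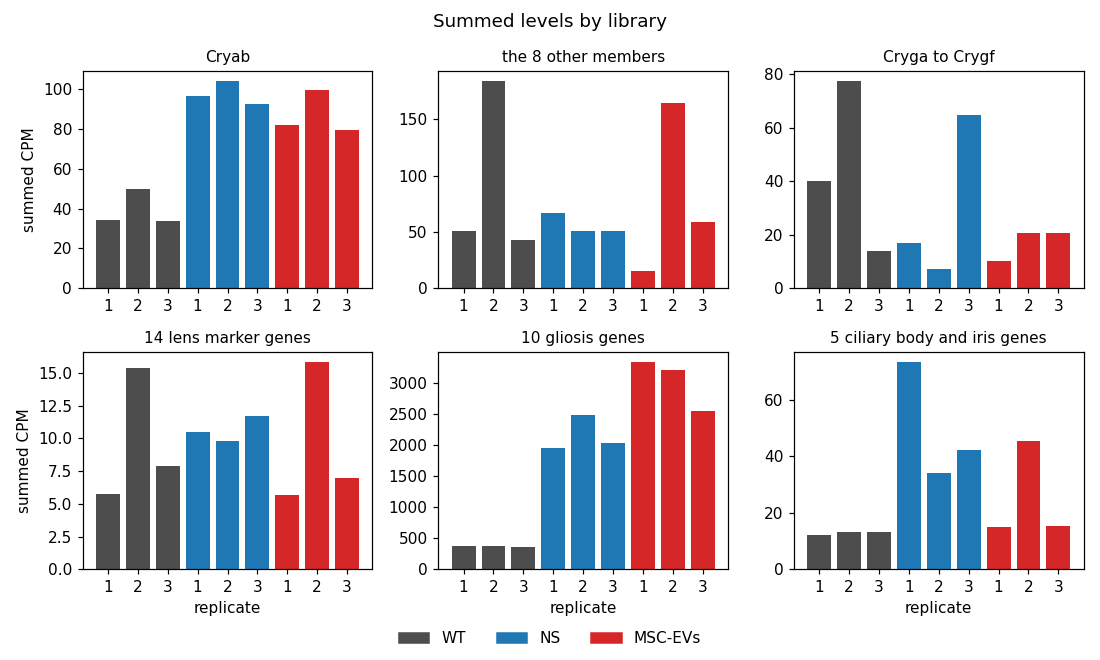
Summed CPM (y axis, from 0) in each library by replicate (x axis) and group (colour) for *Cryab*, the 8 other members, *Cryga* to *Crygf*, 14 lens genes without *Hsf4*, 10 gliosis genes and 5 ciliary body and iris genes. The 8 members and the lens genes are highest in WT 2 and MSC-EVs 2, the γ genes in WT 2 and NS 3, and the gliosis genes stay at 365 to 378 CPM in WT and reach 1960 to 3330 CPM in rd10.

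Markers of other tissues next to the retina also differed between libraries. The 5 genes of ciliary body and iris summed to 12.2 to 13.4 CPM in WT, 34.2 to 73.1 CPM in NS and 15, 45.3 and 15.5 CPM in MSC-EVs, with 3 of 3 tested genes higher in NS than in WT. *Optc*, the most abundant of them, was at 33 CPM in MSC-EVs 2 and at 5.1 and 4.4 CPM in MSC-EVs 1 and MSC-EVs 3, but at 3.67 CPM in WT 2, the lowest of the WT libraries. Retinal pigment epithelium genes summed to 20.8 to 37.2 CPM in WT, 41.1 to 159 CPM in NS and 40.2 to 82.8 CPM in MSC-EVs. Of these, 4 of 8 were higher in NS than in WT, against 31.2% of all genes. Their part in the crystallin levels was not tested.

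*Cryab* rose beside the genes of reactive glia, as genes of other cell types also did. All 10 gliosis genes, among them *Gfap*, rose in NS and in MSC-EVs compared with WT. Their median log2 fold changes were 2.8 and 3.38, and of all genes 31.2% and 28.3% were called higher. WT 2, the WT library highest in *Cryab*, did not stand apart in the gliosis genes, at a median of 1.02 times the other WT libraries. Between MSC-EVs and NS 3 of the 10 were higher, *Fgf2* (0.98), *Osmr* (0.79) and *Stat3* (0.54), whereas *Cryab* was not called. Of 7 Müller glia genes, 6 rose in NS compared with WT. So did 8 of 8 genes of microglia and macrophages (median 2.73) and 8 of 10 of inner retina neurons (median 0.24). Of 6 cone genes, 1 rose and 3 fell. A rise in NS was thus not particular to the genes of reactive glia.

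Among the relatives of the α-crystallins, *Hspb1* had the fold changes against WT nearest to those of *Cryab*. It was at 3.86, 3.36 and 4.45 CPM in WT, at 9.56, 9.07 and 9.98 CPM in NS and at 6.94, 18.4 and 9.89 CPM in MSC-EVs, and rose by 1.29 in NS (SE 0.14, edgeR adjusted p = 9.16e-06) and by 1.60 in MSC-EVs (SE 0.38, adjusted p = 0.0107) compared with WT. *Hspb8* rose by 0.62 and 0.40 and *Hspb6*, the most abundant of the 7 listed small heat shock genes, fell by 0.54 and 0.53 on the log2 scale. In NS compared with WT 5 of the 7 were tested, of which 2 rose and 1 fell, against 31.2% of all genes higher. None of the 4 tested between MSC-EVs and NS changed (edgeR). There the mean of *Hspb1* was higher in MSC-EVs (11.8 CPM) than in NS (9.54 CPM). Those of *Cryab* (87 and 97.7 CPM) and *Hspb8* (14.7 and 17.2 CPM) were lower in MSC-EVs.

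The general heat shock genes did not move one way. Of 12, 4 rose and 5 fell in NS compared with WT, with a median of 0. Of all genes 61.3% were called and 31.2% were higher, so that the heat shock genes rose at about the share of all genes. *Bag3*, a co-chaperone that works with small heat shock proteins, rose by 3 (SE 0.08, edgeR adjusted p = 1.31e-10), from 8.03, 8.68 and 7.61 CPM in WT to 64.2, 64.2 and 67 CPM in NS, and was at 25.7, 99 and 16.2 CPM in MSC-EVs. *Hspa1a* and *Hspa1b*, which encode inducible HSP70 and are near-identical copies, fell by 1.36 and 1.26. MSC-EVs 2 was thus the highest library of its group in *Cryab*, *Hspb1* and *Bag3* as well as in the 8 other members. Over the 12 heat shock genes its median was 0.995 times the other MSC-EVs libraries, with 5 of the 12 above 1. Transcription factors known to act on crystallin genes rose in 5 cases of 9 tested in NS compared with WT and fell in 1, against 31.2% of all genes higher. *Sox2* rose by 0.62, *Pax6* by 0.56 and *Sox11* by 0.47 on the log2 scale. *Maf* itself was at 0.27 (SE 0.12, adjusted p = 0.0683).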

How the data were processed

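Retinal RNA sequencing of 9 mouse libraries was analysed, 3 in each of the WT, NS and MSC-EVs groups, assigned from the labels. The authors deposited 1 table that gives, for each gene in each library, an estimated count (with decimals in 9.16% to 11.7% of genes) and the FPKM. The submitters' processing notes name fastp, Bowtie2, HISAT2, StringTie 1.3.1 and RSEM, without their roles; the genome build and annotation are not given in the sources used here. RNA was selected with oligo(dT) beads, and the deposited protocol does not state strand.

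The estimated counts were rounded and tested with edgeR 4.0.16 (R 4.3.3; filterByExpr, TMM factors of 0.92 to 1.05, robust quasi-likelihood F test, Benjamini-Hochberg adjustment over all genes), each comparison on its 6 libraries; all 9 members passed the filter in all 3 comparisons. An adjusted p under 0.05 was called changed. CPM values are TMM-scaled. FPKM as deposited served for levels between genes and, as log2(FPKM + 1) and log2(FPKM + 0.1), for limma 3.58.1. DESeq2 1.42.0 was a further alternative. The script was tested on simulated data. Positions came from GENCODE M21, in which 22232 of the 22337 identifiers were found, and promoters from RefSeq.

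All members are named. Of the other lists, genes were named from the other crystallins and lens genes, and otherwise at most 4 by the largest called change and the most abundant gene; *Hspb2*, *Gfap*, *Maf* and the individual lens genes given by library were chosen after their values were seen. The members and lists were chosen with earlier results of these data known. Replicate libraries differed by more than sampling noise, so none was counted as a repeat of another. Results of some genes of these lists are not reported here.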

Additional observations from a re-analysis of the deposited data

How the results depend on the processing

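The call on *Cryab* held in every alternative in both comparisons with WT (log2 fold change 1.14 to 1.53 in NS, 1.01 to 1.35 in MSC-EVs), and between MSC-EVs and NS 0 members were called in every alternative. In NS compared with WT the number of changed members went from 1 to 3 with the lens covariate, and ranged from 1 to 3 when each replicate was left out, with 3 without WT 2. Of all genes tested, 7508 of 14644 were called with that covariate and 7890 of 14829 without WT 2. In MSC-EVs compared with WT the number of changed members was 3 with the lens covariate. The direction of the uncalled members was not stable, and the cause was not tested. Leaving out 1 replicate at a time in NS compared with WT gave -1.06 to 0.29 for *Cryaa*, -1.49 to 0.02 for *Cryba1*, -1.10 to 0.27 for *Cryba2*, -1.43 to 0.34 for *Cryba4*, -0.69 to 0.44 for *Crybb1*, -0.88 to 0.47 for *Crybb2* and -0.17 to 0.97 for *Crybb3*. For MSC-EVs and NS it gave -0.61 to 1.07 for *Cryaa*, -0.10 to 1.35 for *Cryba1*, -0.89 to 0.50 for *Cryba2*, -0.23 to 0.97 for *Cryba4*, -0.44 to 0.97 for *Crybb1*, -0.83 to 0.79 for *Crybb2*, -0.66 to 0.51 for *Crybb3* and -0.52 to 0.60 for *Crygs*. In MSC-EVs compared with WT it gave -1.29 to 0.84 for *Cryaa*, -1.10 to 0.88 for *Cryba1*, -1.58 to 0.28 for *Cryba2*, -1.09 to 0.77 for *Cryba4*, -0.81 to 0.97 for *Crybb1*, -1.35 to 0.75 for *Crybb2* and -0.48 to 1.09 for *Crybb3*. By limma on log2(FPKM + 0.1), *Crybb2* was at 0.01 in NS compared with WT. Between MSC-EVs and NS, limma on log2(FPKM + 1) and on log2(FPKM + 0.1) gave -0.11 and -0.17 for *Cryaa*, -0.19 and -0.46 for *Cryba2*, -0.29 and -0.39 for *Crybb2*, -0.13 and -0.19 for *Crybb3*, and -0.10 and -0.19 for *Crygs*, and upper-quartile normalization gave -0.02 for *Cryba2*. The Y-linked level as a covariate gave -0.29 for *Cryba2*, -0.22 for *Crybb2* and -0.28 for *Crybb3* in MSC-EVs compared with NS, and -0.38 for *Crybb1* and -0.11 for *Crybb3* in MSC-EVs compared with WT. The lens covariate gave -0.26 for *Crybb3* in NS compared with WT and -0.11 for *Crybb1* in MSC-EVs compared with WT. With WT 2 and MSC-EVs 2 both left out, added after seeing the data, *Cryba4* was at 0.10 and *Crybb1* at -0.01.

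Libraries of different groups share replicate numbers, and the labels do not say whether the numbers pair them. The correlations of same-numbered libraries' deviations were 0.03, -0.06 and -0.06 between NS and WT and 0.08, 0.02 and 0.02 between MSC-EVs and WT. Between MSC-EVs and NS they were 0.09, 0.17 and 0.27, against -0.19 to 0 for different numbers. Each library there was closest to its own number. The paper states that rd10 littermates were given MSC-EVs or saline, so whether these libraries are paired is unresolved. With the replicate number as a block the number of changed members stayed at 1, 0 and 1. In MSC-EVs compared with NS the block gave -0.22 for *Cryba2*, -0.18 for *Crybb2*, -0.14 for *Crybb3* and -0.11 for *Crygs*. *Cryab* was at -0.17 there (edgeR unadjusted p = 0.0364, adjusted p = 0.185). Of all 14765 genes, 403 were called with the block and 172 without it. The standard errors of the 8 members other than *Cryab* were 0.49 to 1.15 over the 3 comparisons, the largest being that of *Cryaa* in MSC-EVs compared with WT.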

Other observations

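Crystallins of other families, which serve as enzymes or binding proteins in most tissues, showed little of the library pattern of the lens crystallins. *Crym*, which encodes the thyroid hormone binding μ-crystallin, was at 38.7, 40 and 34.6 CPM in WT, at 192, 411 and 216 CPM in NS and at 277, 252 and 141 CPM in MSC-EVs. Every rd10 library was above every WT library, and neither WT 2 nor MSC-EVs 2 was far from the other libraries of its group. The log2 fold change was 2.85 in NS compared with WT (SE 0.38, edgeR adjusted p = 0.00293), 2.56 in MSC-EVs compared with WT (SE 0.29, adjusted p = 0.00127) and -0.29 in MSC-EVs compared with NS (SE 0.41, adjusted p = 0.752).

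Of 14 further crystallin genes 12 were tested, the 6 clustered γ genes among them. In NS compared with WT 5 rose and 1 fell, against 31.2% of all genes higher. Beside *Crym*, the quinone reductase gene *Cryz* rose by 0.44, *Cryl1* by 0.42, *Crybg1* by 0.55 and *Crybg3* by 0.25, and *Cryzl1* fell by 0.35 on the log2 scale. In MSC-EVs compared with WT *Crym*, *Crybg1* (0.96) and *Crybg3* (0.54) rose and *Cryzl1* fell by 0.43, and between MSC-EVs and NS 0 of the 12 changed (edgeR). *Crybg1*, *Crybg3*, *Cryz*, *Cryzl1* and *Cryl1* overlap other genes, so that their counts are uncertain.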
